A study of Mus musculus with 28 samples.

Results

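Binding of 4 Forkhead transcription factors was described around Klf2, Klf4 and Klf5, which encode Krüppel-like zinc finger factors. An event, the 1 bp position that the authors' caller gave to a bound site, was counted for a gene when it lay within 50 kb of either end of the gene body in mm10. This rule took 164 of the 162571 events in the 14 lists analysed, 31 near Klf2, 42 near Klf4 and 91 near Klf5, for 3 of 21887 protein-coding genes. Events were measured by ChIP-exo, a form of chromatin immunoprecipitation in which an exonuclease trims the DNA up to the crosslinked protein.

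All lines were MC1 mouse embryonic stem cells (129S6/SvEvTac) carrying a transgene at Rosa26 that doxycycline (Dox) keeps silent, with a His6-FLAG tag at the C-terminus of the factor. The cells were washed free of Dox and kept in DMEM-based differentiation medium with serum, so every group lost Dox and left stem cell medium for its stated hours. Each factor has 1 combined list at 24 h, for which the labels give 3 FoxA1 libraries (2 with anti-FLAG, 1 with anti-FoxA1) and 2 anti-FLAG libraries each of FoxC1, FoxL2 and FoxP3. FoxA1 was also followed over 0, 6, 12, 24 and 48 h, by separate libraries, 1 per time for anti-FLAG and 1 for anti-FoxA1. An empty control line with 2 libraries has no list used here, so the 0 h lists of the FoxA1 line are the only baseline. The FoxC1, FoxL2 and FoxP3 lists have no baseline. Factors came from different lines, and line and factor cannot be told apart. The lists hold no expression values, so the cell type could not be checked against its markers, and whether the Klf genes were transcribed was not measured. Each list is a single set of calls with no replicate list, so values have no SD and no differences were tested.

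The lists differed much in length, with 32948 events for FoxA1, 1112 for FoxC1, 7244 for FoxL2 and 4385 for FoxP3. The anti-FLAG course held 20, 17, 1656, 15984 and 13899 events at 0, 6, 12, 24 and 48 h. The anti-FoxA1 course held 15, 86, 8345, 35134 and 41726 events at the same times. At 0 h, only 2 of the 20 anti-FLAG events lay on the nuclear chromosomes, as did all 15 anti-FoxA1 events. The files give no read totals, so depth is unknown, and a gene with no event has only no call in that list. Scores are the authors' own values, from 43 up to a ceiling of 1000 on a scale that is not given. Where scores of different lists stand side by side they were not tested, and the percentile of an event in its own list is given for the main ones.

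In mouse embryonic stem cells, Klf2, Klf4 and Klf5 help to hold the naive state and overlap in function. Klf4 is induced by the cytokine LIF through Stat3, Klf2 is supported when MEK signalling is inhibited, and Klf5 also acts in the early embryo's trophectoderm and in gut epithelium. Forkhead proteins bind DNA through a winged helix domain that reads a core of TGTTTA or the longer TGTTTAC. FoxA1 is a pioneer factor of endoderm, FoxC1 acts in mesoderm, FoxL2 in the ovary and FoxP3 in regulatory T cells.

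The upstream sequence of Klf4 is shown because FoxA1 events fell in it beside a Forkhead core. Gm12511 is a long non-coding RNA gene farther out on the 5′ side of Klf4. Its upstream sequence is shown because it held the other events found in the available promoter windows. Both are the 250 bases before the start site in RefSeq's table (GRCm38.p6), Klf4 on the minus strand at chr4:55532476-55532725 and Gm12511 on the plus strand at chr4:55571542-55571791, written 5′ to 3′ with each TGTTTA, or its reverse complement TAAACA, in capitals.
Klf4: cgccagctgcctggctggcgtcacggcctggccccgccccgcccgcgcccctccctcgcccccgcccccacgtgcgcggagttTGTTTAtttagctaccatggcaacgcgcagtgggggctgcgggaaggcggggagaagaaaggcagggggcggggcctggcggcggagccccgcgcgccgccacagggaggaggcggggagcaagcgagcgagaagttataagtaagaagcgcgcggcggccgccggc
Gm12511: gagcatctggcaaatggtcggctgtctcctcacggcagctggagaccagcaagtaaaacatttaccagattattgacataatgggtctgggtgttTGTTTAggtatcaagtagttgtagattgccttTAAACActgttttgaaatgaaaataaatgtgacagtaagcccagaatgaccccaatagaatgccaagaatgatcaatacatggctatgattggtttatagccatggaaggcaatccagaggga

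The Klf4 sequence is 74% G or C and holds 1 core, at positions -167 to -162 from the start site. The anti-FoxA1 course placed an event 156 bp before the start at 12 h (score 46, at percentile 8.993 of its list) and 152 bp before it at 48 h (score 53, percentile 15.23). These lay 6 bp and 10 bp from the core. No event was called there at 24 h with anti-FoxA1, in any anti-FLAG list or in any combined list. The start of Gm12506, a long non-coding RNA gene on the opposite strand, lies 235 bp from Klf4, so the same 2 events and the same core also stand in its promoter.

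The Gm12511 sequence is 41.6% G or C and holds 2 cores. The anti-FoxA1 event at 24 h lay inside the core nearer the 5′ end of the sequence, at position -151 from the start site, with a score of 61 (percentile 29.46). At 48 h it lay at position -149, 1 bp from that core, with a score of 172 (percentile 75.75). No anti-FLAG list and no combined list called an event there. Gm12511 starts 39317 bp from Klf4, so this place is far from the Klf4 promoter itself.

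**Figure D1:**
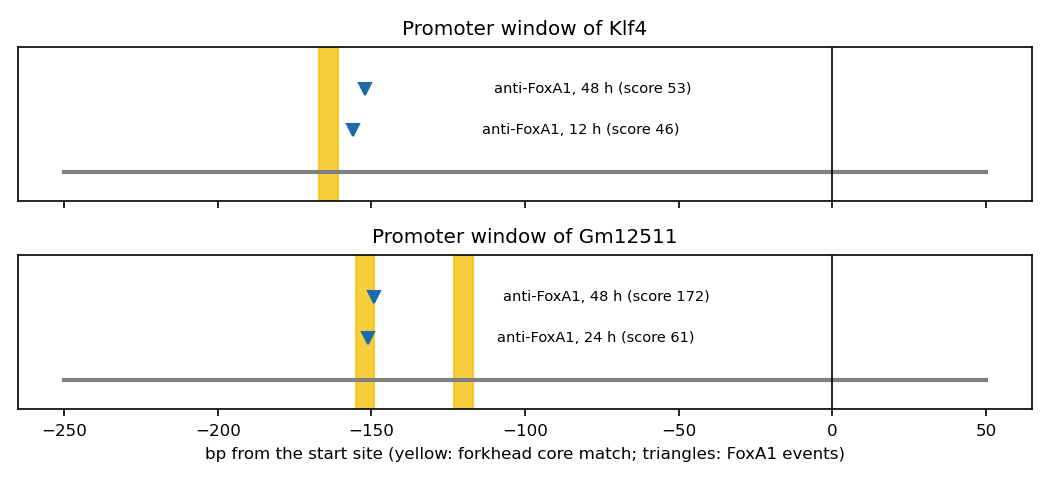
FoxA1 events (triangles) in the promoter windows of Klf4 (top) and Gm12511 (bottom), by distance from the start site in bp; yellow bands are matches to the core TGTTTA on either strand and the vertical line is the start site. The Klf4 events lie 6 and 10 bp from the core, and the Gm12511 events lie inside or 1 bp from one of its 2 cores.

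The table's promoter windows run from 250 bases before to 50 bases after each start. The core TGTTTA, searched on both strands, stood in 42.2% of the 600 windows with an anti-FoxA1 event at 48 h and in 13.4% of all 32817 windows. In the windows with an event, 31.9% of the 612 events lay within 20 bp of the core, beside 2.21% of all promoter bases. The longer TGTTTAC, which contains the shorter core, stood in 3.65% of all windows and in neither the Klf4 nor the Gm12511 window. The Klf2 window, on the plus strand, held no event and no match to either motif, and the table held 5 windows for genes in the 3 regions. It held no window for Klf5, so events in a Klf5 promoter window could not be looked for.

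At 24 h, the combined FoxA1 list placed 6 events near Klf2, 8 near Klf4 and 12 near Klf5. In that list 73.4% of all protein-coding genes had at least 1 event within 50 kb and the median gene had 2, so a FoxA1 event near each Klf gene is the usual finding. At least as many events as at Klf2 were found at 11.5% of genes, as at Klf4 at 5.01% and as at Klf5 at 1.03%.

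FoxL2 had 2 events near Klf2, 2 near Klf4 and 6 near Klf5, where 30.9% of genes had any. FoxP3 had 2, 2 and 5 at the same genes, where 20.6% of genes had any. Klf5 stood highest of the 3 for both factors: only 0.187% of genes (41) had at least as many FoxL2 events and 0.283% (62) at least as many FoxP3 events. Long genes have wider windows, and by events per window length the shares were smaller at all 3 genes. At Klf5 they were 0.384% for FoxA1, 0.0503% for FoxL2 and 0.128% for FoxP3. In the same order they were 4.39%, 3.23% and 1.83% at Klf2 and 1.72%, 3.8% and 2.17% at Klf4.

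Most of the events at Klf5 in these 3 lists lay more than 20 kb from the gene, and its lead depends on the window. Within 20 kb, FoxA1 had 4 events near Klf2, 3 near Klf4 and 4 near Klf5. FoxL2 had 2, 1 and 1, and FoxP3 had 2, 1 and 0 at the same genes, so Klf2 had the most for both. At 20 kb, 53.7% of all protein-coding genes had any FoxA1 event, 17% any FoxL2 event and 11% any FoxP3 event. Within 100 kb, Klf4 had the most FoxA1 events, 17 beside 9 at Klf2 and 14 at Klf5, while Klf5 led for FoxL2 (7) and FoxP3 (6). At 100 kb, the shares of genes with any event were 84.8% for FoxA1, 46.3% for FoxL2 and 32.8% for FoxP3.

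FoxC1 had 1 event near Klf2 and none near Klf4 or Klf5, where 7.26% of genes had any. Its nearest events lay 131013 bp from Klf4 and 381276 bp from Klf5. Klf2 was thus the gene with an event of all 4 factors, which held for 3.19% of genes, while Klf4 and Klf5 had 3 of the 4. At least 3 factors were near 13.8% of genes.

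**Figure D2:**
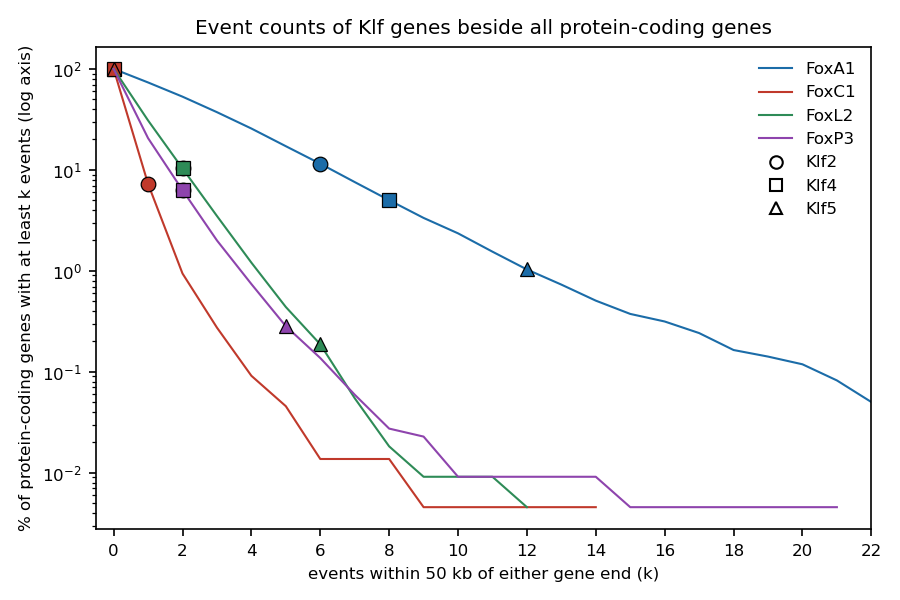
Percent of the 21887 protein-coding genes (log axis) with at least the given number of events within 50 kb, for each combined list at 24 h (lines); symbols mark Klf2, Klf4 and Klf5, and where counts are equal the square of Klf4 covers the circle of Klf2. Klf5 lies far down the curves of FoxA1 (12 events), FoxL2 (6) and FoxP3 (5), and the symbols of Klf4 and Klf5 meet at 0 for FoxC1.

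Over all lists, joining events no more than 100 bp apart gave 53 separate places, 15 near Klf2, 16 near Klf4 and 22 near Klf5. Of these, 17 were called in 1 list only, 9 of them near Klf2, 6 near Klf4 and 2 near Klf5. Places called in 5 or more lists numbered 14, with 10 near Klf5 and 2 each near Klf2 and Klf4. The matching numbers over all genes were not worked out, so whether these are usual is not known. A FoxA1 list called 48 of the 53. The FoxA1 lists all come from the FoxA1 transgene line, so several lists at 1 place are not independent repeats of a condition.

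**Figure D3:**
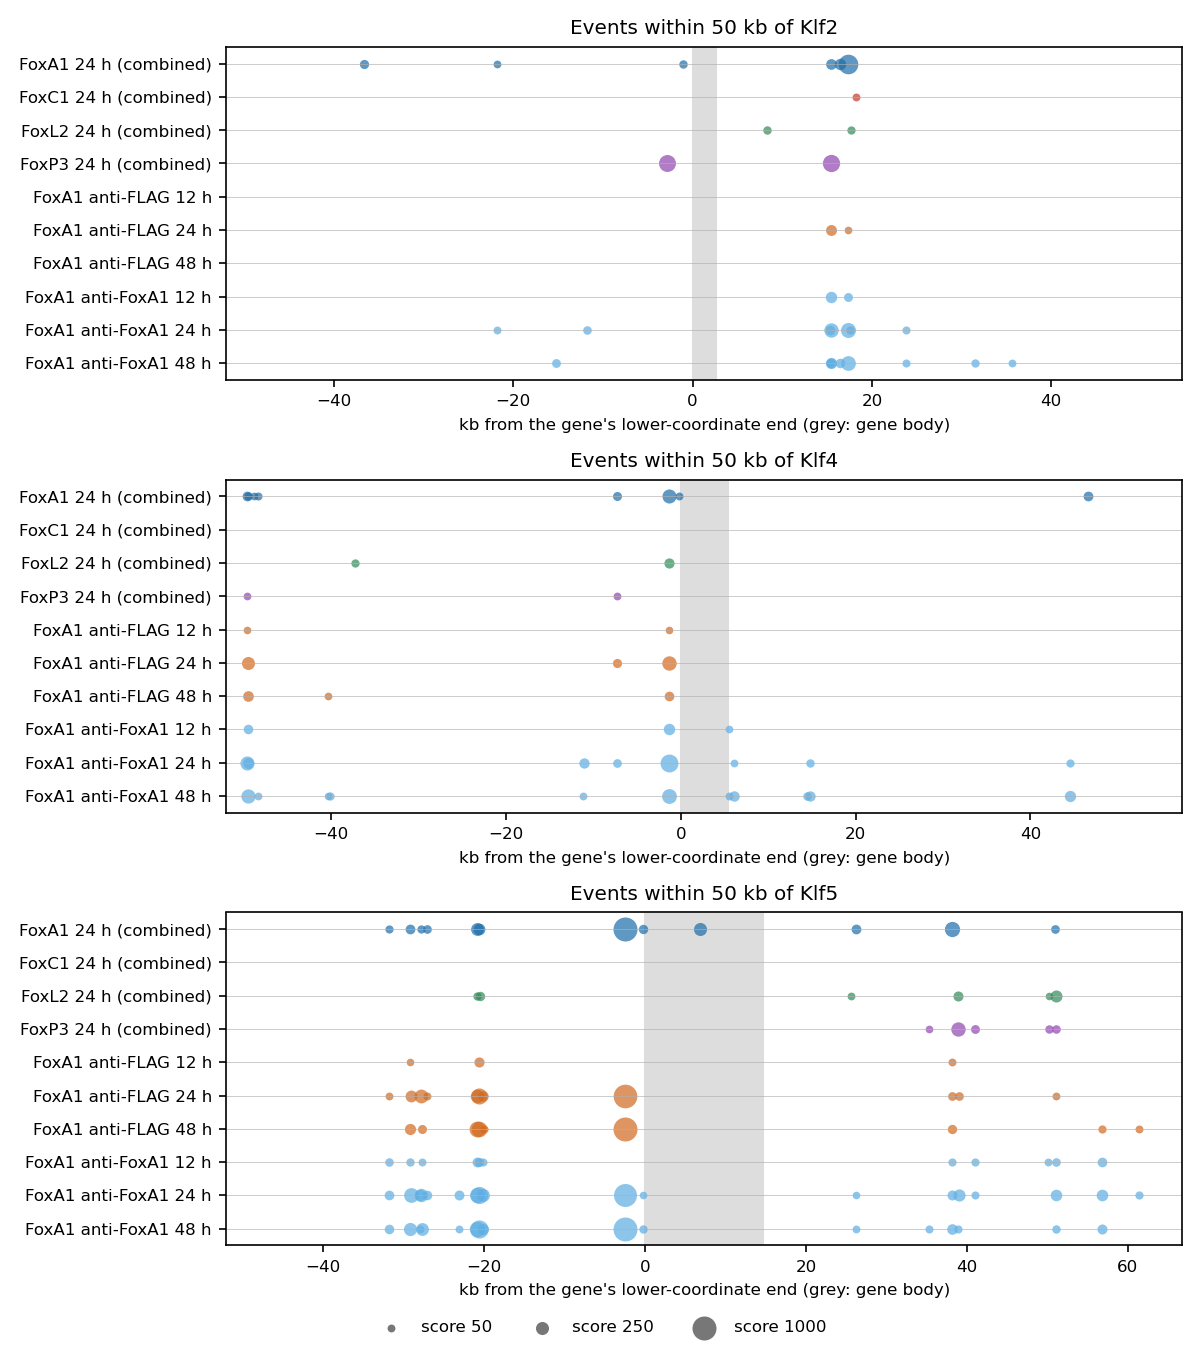
Events within 50 kb of Klf2 (top), Klf4 (middle) and Klf5 (bottom) in the 10 lists from 12 h on, by distance in kb from the lower-coordinate end of the gene (grey, gene body); symbol area follows the score. Klf2 events gather in 1 group above the gene, Klf4 events recur just below the gene and at the lower window edge, and Klf5 events lie on both sides.

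Klf2 (gene ID 16598) lies at chr8:72319062-72321654 on the plus strand, and 24 of its 31 events lay past its 3′ end. Of these, 19 fell in a stretch of 2924 bp at chr8:72334377-72337300, which held 5 places from 8 lists and events of all 4 factors. Only 7 of the 31 events had Klf2 as their nearest protein-coding gene, and 4 lay inside Eps15l1, an endocytic adaptor gene 19336 bp away. No event lay inside Klf2 or within 1 kb of its ends.

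The place in most lists near Klf2 was chr8:72334377-72334550, called in 6 lists. FoxP3 had a score of 486 there (percentile 96.68) and combined FoxA1 had 148, at positions 6 bp apart. Anti-FoxA1 called 1 event at 12 h (score 178), 2 at 24 h (105 and 319) and 3 at 48 h (67, 126 and 168), while anti-FLAG called 1 at 24 h (158). Thus this place was seen by both antibodies, but with anti-FLAG at 24 h alone.

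The highest score near Klf2 in any list was 646, for combined FoxA1 at position 72336397, which is 14743 bp past the 3′ end. At that place anti-FLAG scored only 46 at 24 h (percentile 1.867), and anti-FoxA1 scored 83, 352 and 339 at 12, 24 and 48 h. The FoxL2 event at 72336741 (score 63) and the FoxC1 event at 72337300 (score 52, percentile 28.01) followed within the same stretch. Neither lay within 100 bp of a combined FoxA1 event, though an anti-FoxA1 event of 24 h (61) stood beside the FoxL2 event.

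On the upstream side, FoxP3 had an event 2870 bp before the Klf2 start, at 72316192, with a score of 467 (percentile 96.35) and no FoxA1 list within 100 bp. FoxA1 had a weaker event 1101 bp before the start (score 68), in the combined list only. A FoxL2 event 5663 bp past the 3′ end (score 68) was also without FoxA1. Klf2 so had 3 of the 5 places that no FoxA1 list called.

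Klf4 (gene ID 16600) lies at chr4:55527137-55532475 on the minus strand, and was the nearest protein-coding gene for all 42 of its events. There were 32 on its 3′ side and 10 on its 5′ side, none inside the gene body and 5 within 1 kb of an end. Another 5′ place, 768 to 772 bp before the start site and inside Gm12506, was called with anti-FoxA1 at 24 h (score 48) and 48 h (score 139). With the promoter place it made a group of 4 events in 621 bp, all from the anti-FoxA1 course.

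The main place near the gene lay at chr4:55525756-55525787, 1350 to 1381 bp past the 3′ end, and was called in 8 lists. Scores with anti-FLAG were 44, 319 and 109 at 12, 24 and 48 h (percentiles 2.929, 87.37 and 56.76). With anti-FoxA1 they were 178, 528 and 342 at the same times (percentiles 87.00, 95.82 and 90.42). Both courses were highest here at 24 h, by score and by percentile. Combined FoxA1 scored 301 and FoxL2 scored 128 (percentile 84.79), 31 bp apart.

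A second place in 8 lists, at chr4:55477460-55477644, lay 49493 bp or more past the 3′ end, just inside the window. Combined FoxA1 had 2 events there (112 and 58) and FoxP3 had 1 (47). Anti-FLAG scored 44, 249 and 147 and anti-FoxA1 at most 106, 304 and 310 at 12, 24 and 48 h. Just outside the window, 51456 bp from Klf4, combined FoxA1 had a stronger event at 55475681 (score 797), and FoxP3 had one at 55475760 (score 73). At that outside place anti-FoxA1 scored 260, 972 and 592 and anti-FLAG 51, 353 and 71 at 12, 24 and 48 h, and none of these counts for Klf4 here.

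Several other Klf4 places were called at 1 time or by 1 list. The place at chr4:55519805-55519848, 7289 bp past the 3′ end, was called at 24 h alone, by combined FoxA1 (86), FoxP3 (50), anti-FLAG (90) and anti-FoxA1 (77). FoxL2 alone had an event at 55489792 (score 63), and combined FoxA1 alone had one 207 bp past the 3′ end (score 53).

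Klf5 (gene ID 12224) lies at chr14:99298691-99313412, and within 50 kb had the most events of the 3 genes in each list that had any, other than the FoxC1 list, an order that does not hold within 20 kb. There were 53 events on its lower-coordinate side, 37 on its higher-coordinate side and 1 inside the gene, a combined FoxA1 event at 99305552 (score 251) that no other list called. Klf5 was the nearest protein-coding gene for 66 of 91 events, and the other 25 lay nearer Pibf1, a gene of a centrosomal protein that ends 43792 bp away. None of the 91 lay inside Pibf1. The place nearest an end of Klf5 lay 211 to 214 bp below its lower-coordinate end. It was called by combined FoxA1 (score 98) and by anti-FoxA1 at 24 h (43) and 48 h (67).

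The strongest place of all 3 genes was chr14:99296224-99296245, 2446 to 2467 bp below Klf5. Its score was 1000, the ceiling, in the combined FoxA1 list (percentile 98.35). Anti-FLAG gave 969 at 24 h and 1000 at 48 h, and anti-FoxA1 gave 910 and 1000. Neither course called it at 12 h, when weaker places near Klf5 were already called, and FoxL2 and FoxP3 had no event there.

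About 20 kb below Klf5, a stretch of 913 bp at chr14:99277788-99278700 held 20 events in 3 places from 8 lists. At its middle place, chr14:99278036-99278144, anti-FLAG scored 126, 414 and 387 and anti-FoxA1 scored 98, 482 and 545 at 12, 24 and 48 h. FoxL2 (63) and combined FoxA1 (239) shared the very base 99277834 in the same stretch. The FoxL2 event at 99278144 (98) lay 101 bp from the combined FoxA1 event at 99278043 (192), just past the limit for a shared place.

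Farther below, a stretch of 931 bp at chr14:99270703-99271633 held 11 events, all FoxA1. The place at chr14:99269552-99269563 next to it was called in 7 lists, at 43, 195 and 169 with anti-FLAG and 65, 339 and 255 with anti-FoxA1 at 12, 24 and 48 h. These places have Pibf1 as their nearest protein-coding gene.

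Above Klf5, FoxL2 and FoxP3 met on the same base 3 times, at 99337561 (scores 123 for FoxL2 and 317 for FoxP3), at 99348845 (43 and 69) and at 99349707 (204 and 72). At the last of these combined FoxA1 lay 14 bp away (score 77), the only place near the 3 genes with 3 factors among the combined lists. The FoxA1 courses also had events at the other two places, with anti-FLAG at 24 h (76) and anti-FoxA1 at 24 and 48 h (211 and 59) in the place of 99337561, and with anti-FoxA1 at 12 h (51) in that of 99348845. All FoxP3 events at Klf5 lay on this side, and 4 of 6 FoxL2 events. The place at chr14:99336782-99336797, 23370 bp above the gene, was FoxA1 alone and was called in 7 lists, with 363 in the combined list. Its course scores were lower, 53, 78 and 98 with anti-FLAG and 60, 120 and 146 with anti-FoxA1 at 12, 24 and 48 h.

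Across the 4 combined lists, the 46 events near the 3 genes made 37 places, of which 8 (21.6%) held more than 1 factor, 1 near Klf2, 3 near Klf4 and 4 near Klf5. Among all 40974 places of these lists, 8.6% held more than 1 factor. The mix of factors differed between these sets, and its part in the gap was not tested. Near the 3 genes lay 0.0789% of all FoxA1 events, 0.0899% of FoxC1, 0.138% of FoxL2 and 0.205% of FoxP3 events. The Klf4 places paired FoxA1 with FoxP3 in 2 cases and with FoxL2 in 1, and the Klf2 place paired FoxA1 with FoxP3.

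FoxL2 and FoxP3 shared the exact base at 3 of their 3 meetings near Klf5, where 24.6% of such meetings in the whole lists did (163 of 662). FoxA1 and FoxL2 shared it at 1 of 3 near the Klf genes, beside 5.14% in the whole lists, and FoxA1 and FoxP3 at 0 of 4, beside 4.2%. The sources used here do not say whether the caller was given several factors at a time, and its part in the shared bases was not tested. By event, 3 of 10 FoxL2 events near the 3 genes lay within 100 bp of a FoxA1 event (18.5% in the whole list), as did 4 of 9 FoxP3 events (42.6%).

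In the FoxA1 courses, no list of 0 or 6 h placed an event near any of the 3 genes. Those lists had events near few genes at all, 0% and 0.0411% with anti-FLAG and 0.0731% and 0.576% with anti-FoxA1. With anti-FLAG, the counts at 12, 24 and 48 h were 0, 2 and 0 near Klf2, 2, 3 and 3 near Klf4, and 3, 11 and 9 near Klf5, when 9.81%, 51.6% and 49.1% of genes had any event. With anti-FoxA1 they were 2, 7 and 9 near Klf2, 3, 8 and 11 near Klf4, and 11, 18 and 16 near Klf5, when 36.6%, 73.5% and 76.6% of genes had any. At 12 h with anti-FoxA1, 11 or more events were found at only 6 genes (0.0274%), Klf5 among them. All 11 of those Klf5 events lay 20129 bp or more from the gene. Within 20 kb, neither antibody had an event near Klf5 at 12 h, where anti-FoxA1 had 2 each near Klf2 and Klf4 and anti-FLAG had 1 near Klf4. At 24 and 48 h the counts within 20 kb with anti-FoxA1 were 5 and 6 near Klf2, 5 and 6 near Klf4, and 3 and 3 near Klf5. With anti-FLAG they were 2 and 0 near Klf2, 2 and 1 near Klf4, and 1 and 2 near Klf5, so Klf5 led there only with anti-FLAG at 48 h. Within 50 kb, events near Klf2 and Klf4 were most numerous at 48 h with anti-FoxA1, those near Klf5 at 24 h with both antibodies.

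**Figure D4:**
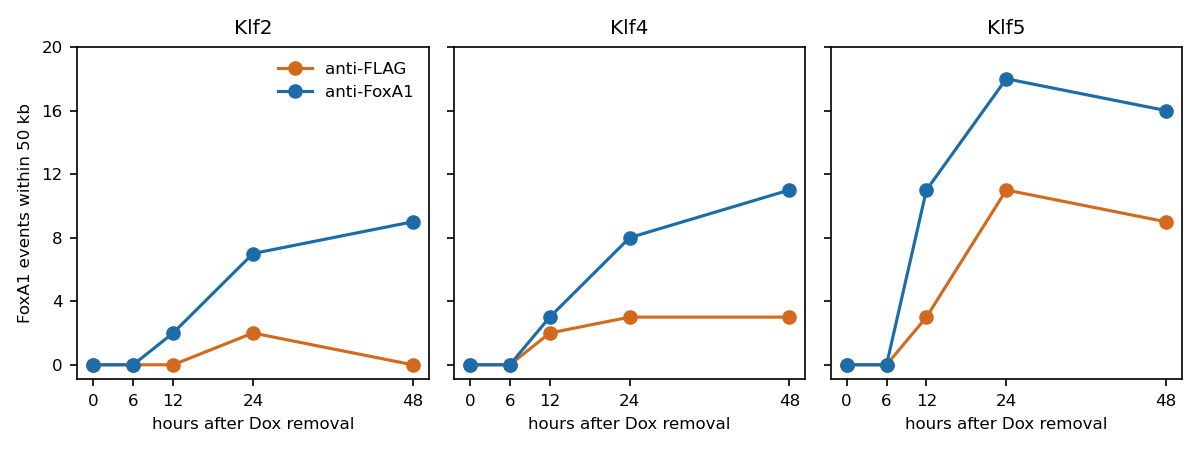
FoxA1 events within 50 kb of Klf2 (left), Klf4 (middle) and Klf5 (right) at 0, 6, 12, 24 and 48 h after Dox removal. Lines give anti-FLAG (orange) and anti-FoxA1 (blue), with 1 library per point. All counts are 0 at 0 and 6 h, and in this 50 kb window Klf5 leads at each later time, with 18 events at 24 h with anti-FoxA1; within 20 kb it has none at 12 h.

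With anti-FLAG, 5 places were first called in the 12 h list, 11 in the 24 h list and 3 in the 48 h list. With anti-FoxA1 the numbers were 16, 17 and 9. Of 11 Klf5 places called by anti-FoxA1 at 12 h, 10 were called by it again at a later time. Both courses called 19 places. Anti-FoxA1 called 9 of them at an earlier time, both called 10 at the same time, and anti-FLAG called none earlier. The anti-FoxA1 lists are longer at each time from 12 h, and the part of list length in this order was not tested.

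All 5 anti-FLAG events of 12 h had an event within 100 bp at 24 h (95.1% over the whole list), and 8 of 16 of 24 h had one at 48 h (61.3%). With anti-FoxA1 these were 14 of 16 (89.2%) and 25 of 33 (72%). All 16 anti-FLAG events of 24 h had an anti-FoxA1 event within 100 bp at that time, as 86% of the whole list did. Both anti-FLAG events near Klf2 at 24 h were lost from the anti-FLAG list at 48 h, while anti-FoxA1 still called both places.

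Both antibodies called 9 places in their 24 h and their 48 h lists, 7 near Klf5, 2 near Klf4 and 0 near Klf2. At the 2 Klf4 places anti-FLAG scores were lower at 48 h than at 24 h, 147 against 249 (percentiles 68.22 and 82.32) and 109 against 319 (percentiles 56.76 and 87.37). With anti-FoxA1, 1 of the 2 was lower at 48 h (342 against 528) and 1 higher (310 against 304). Of the 7 Klf5 places, 4 were lower and 3 higher at 48 h with anti-FLAG, and 3 lower and 4 higher with anti-FoxA1. The strongest Klf5 place was among those higher with both, at the ceiling at 48 h. With 1 library at each time, these differences cannot be set against replicate error.

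**Figure D5:**
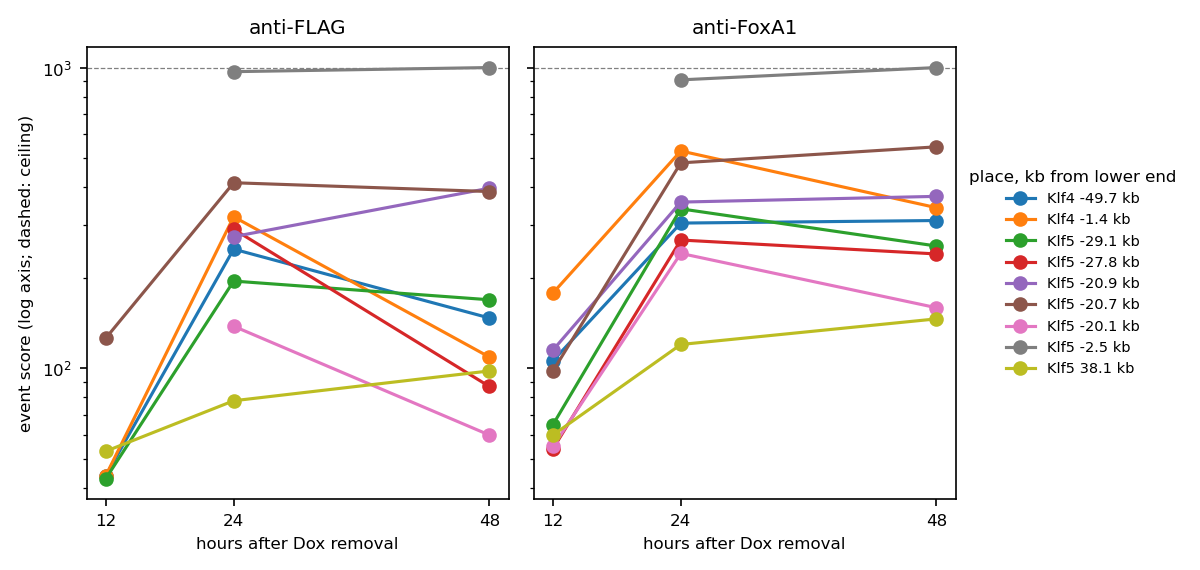
Scores (log axis, highest event of a place in each list) at 12, 24 and 48 h for the 9 places called by both antibodies at 24 and 48 h, with anti-FLAG (left) and anti-FoxA1 (right); places are named by gene and distance in kb from its lower-coordinate end, and the dashed line is the ceiling of 1000. The place 2.5 kb below Klf5 is at 910 or more in all 4 points and has none at 12 h.

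The wider Klf and Sp family, 26 genes of related zinc finger factors, includes Klf2, Klf4 and Klf5. These 3 are among the members counted below for FoxA1, FoxL2 and FoxP3, and Klf2 is among those for FoxC1. The family had FoxA1 events near 25 members (96.2%, beside 73.4% of all protein-coding genes) and FoxC1 events near 5 (19.2%, beside 7.26%). FoxL2 had events near 13 (50%, beside 30.9%) and FoxP3 near 11 (42.3%, beside 20.6%). The member without FoxA1 was Klf17. For FoxA1, Klf9, a hormone-responsive factor, had 15 events, Klf5 12 and Klf15, a regulator of metabolism, 11. For FoxL2, Klf5 led with 6, ahead of Sp1 with 4 and Klf9 with 3. For FoxP3, the broadly expressed activator Sp1 had 6, Klf5 5 and the osteoblast factor Sp7 4, and Sp1 and Sp7 are neighbours on chromosome 15 whose windows overlap. For FoxC1, Klf3, Sp3 and Klf2 were the nearest of the 5 members with 1 event each. Klf5 was thus among the leading 3 family members for FoxA1, FoxL2 and FoxP3.

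Among 20 other genes of the naive pluripotency network, FoxA1 had events near 20 (100%, beside 73.4% of all protein-coding genes) and FoxC1 near 8 (40%, beside 7.26%). FoxL2 had events near 11 (55%, beside 30.9%) and FoxP3 near 15 (75%, beside 20.6%). Within 20 kb these were 4 and 11 of the 20 genes, beside 17% and 11% of all protein-coding genes. For FoxA1 the most were at Esrrb, an orphan nuclear receptor gene (21), at Lifr, the LIF receptor gene (13), and at Prdm14, a repressor of differentiation genes (12). Klf5 with 12 equals Prdm14. For FoxL2, Klf5 had 6, and no network gene passed the 2 events at Tbx3, Pou5f1 and Nanog, all genes of pluripotency transcription factors. For FoxP3, Klf5 had 5, Nanog 6, Dppa5a, a stem cell marker gene, 5 and Sall4, a zinc finger factor gene, 3. For FoxC1, Klf2 had 1, Nanog 4, Prdm14 2 and Lin28a, a gene of an RNA-binding protein, 1.

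Genes with the most similar counts over the 11 lists with at least 20 events on the nuclear chromosomes were found by the sum of absolute count differences. Genes that share an event with the Klf gene were left out. Nearest to Klf2 were Dars, Fam169a and Zdbf2, each at a sum of 4. Nearest to Klf4 were Ndufs1 at 4, and Nt5m and Sbf2 at 5. Klf5 had no gene so close. With 91 events in all lists it was nearest to Cdk19, a Mediator kinase gene with 80 events (sum 17). Next to Klf5 came Aff1 with 86 and Arfgap3 with 74 (sum 19 each). Such sums can be larger where counts are higher, and the part of this in the Klf5 sums was not tested.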

How the data were processed

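The submitters' processing notes name BWA 0.7.17-r1188, the mm10 build, Picard and SAMtools. The file headers name ChExMix as the event caller. Its version, controls, thresholds and way of combining libraries are unstated in the sources used here. The authors' deposited score of each event is a whole number on a scale that is not stated. The files hold no read counts, so depth and its precision are unknown.

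The labels give 21 libraries in 15 groups, of which 19 libraries in 14 groups stand behind the lists, and some items of the series are not reported here. Genes came from a GRCm38.p6 table (49943 genes), promoters from RefSeq. Events within 50 kb of either gene end were counted and joined at 100 bp with Python 3.11.15 and numpy 2.4.6; the counting was tested on simulated data. Named genes were the 3 Klf genes, protein-coding neighbours, the 3 family and 3 network genes with most events in each combined list, and the 3 genes most similar in counts. The members and lists were chosen with earlier results of these data known. Alternatives were other windows, joining distances and score limits, start sites, runs of events left out, and single-antibody FoxA1 lists.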

Additional observations from a re-analysis of the deposited data

How the results depend on the processing

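No paired analysis was possible because each group has a single list of events and no result comes from a test, and for the same reason leaving out a replicate was not possible. Of 73 recomputed values, 46 stayed within 1.5 times and 27 moved further. The 46 include the course counts of 0 and 6 h, which were 0 at each setting. A smaller window or a score limit could not have moved those. With a window of 20 kb, counts near the 3 genes were 11 for FoxA1 (26 at 50 kb), 4 for FoxL2 (10), 3 for FoxP3 (9), 1, 5 and 3 for anti-FLAG at 12, 24 and 48 h (5, 16 and 12), and 4, 13 and 15 for anti-FoxA1 (16, 33 and 36). By gene, Klf5 then no longer led in most lists, as given with its counts. Shared places were 3 (8), family genes with FoxC1 3 (5) and network genes with FoxL2 4 (11). Within 20 kb, 3.66% of all protein-coding genes had a FoxC1 event and 17% a FoxL2 event. The 4 of 20 network genes with FoxL2 were thus close to the share of all genes. With 100 kb, FoxA1 had 40, anti-FLAG 27 and 22 at 24 and 48 h, and anti-FoxA1 50 and 58, and Klf4 passed Klf5 for FoxA1 (17 and 14) and for anti-FoxA1 at 48 h (23 and 22). Keeping events at or above their list's median score left 13 for FoxA1, 0 for FoxC1, 4 for FoxP3, 1, 9 and 7 for anti-FLAG, 8, 21 and 18 for anti-FoxA1, and 4 shared places. Shared places were 8 and 9 when joined at 50 and 200 bp. They were 7 with the anti-FLAG and 11 with the anti-FoxA1 list of 24 h in place of combined FoxA1. These follow from the windows and limits themselves, and depth limits what a missing call shows.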
